A study of Mus musculus with 18 samples.

Results

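Expression of 70 genes that encode axon guidance ligands and receptors was followed in mouse cerebral cortex and in embryonic stem cells. They are the protein-coding genes of the count table whose symbols in GENCODE mouse release M21 name semaphorins of classes 3 to 7, plexins, neuropilins, Eph receptors, ephrins, Robo receptors, Slits, netrins, Unc5 receptors, Dcc and Draxin. The table held 54281 genes in all. The 70 comprised 20 semaphorins, 9 plexins, 2 neuropilins, 14 Eph receptors, 8 ephrins, 4 Robo receptors, 3 Slits, 4 netrins, 4 Unc5 receptors, Dcc and Draxin, which makes 36 ligands and 34 receptors. All 70 passed the filter on low counts.

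The series is a bulk RNA-seq study of the developing cortex in a mouse model of microcephaly, labelled as a knockout of Mcph1. The cortex groups were libraries labelled Mcph1KO (Mcph1 knockout) and wild-type (WT) libraries at 4 stages, which the labels call E17.5, P4, A6w and A18w, all from male C57BL/6J mice. A further group was WT R1 mouse embryonic stem cells (mESC), an established line for which no strain or sex was given. Each of the 9 groups held 2 libraries. The labels do not say how the knockout was made, whether each library came from a separate animal, or how A6w and A18w were defined.

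Growing axons are steered by secreted and membrane-bound proteins that attract or repel their tips. Class 3 semaphorins act through neuropilin and plexin complexes, ephrins through Eph receptors on neighbouring cells, Slits through Robo receptors, and netrins through Dcc and Unc5 receptors. In the developing cortex these pairs are known for roles in the crossing of the corpus callosum, the routing of thalamic and cortical axons, neuronal migration and, later, the refinement of synapses.

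Promoters of 4 genes with some of the largest changes between P4 and A6w are shown first, because these genes recur in the results below. They are the 250 bases before the RefSeq gene start on build GRCm38.p6, read 5′ to 3′ on the gene's strand. Draxin lies on the minus strand (window chr4:148130699-148130948) and Efna4 on the minus strand (chr3:89338029-89338278). Ntn5 lies on the plus strand (chr7:45683772-45684021) and Plxnb3 on the plus strand (chrX:73756853-73757102). Capitals mark a GC box (GGGCGG or its reverse complement CCGCCC) or a CCAAT box (CCAAT or ATTGG). Both strands were searched, and none of these windows holds both motifs. The genes themselves span chr4:148098437-148130698 (Draxin, ENSMUSG00000029005.4), chr3:89333390-89338028 (Efna4, ENSMUSG00000028040.7), chr7:45684022-45694556 (Ntn5, ENSMUSG00000070564.15) and chrX:73757090-73772514 (Plxnb3, ENSMUSG00000031385.14) in the GENCODE annotation of GRCm38.
Draxin: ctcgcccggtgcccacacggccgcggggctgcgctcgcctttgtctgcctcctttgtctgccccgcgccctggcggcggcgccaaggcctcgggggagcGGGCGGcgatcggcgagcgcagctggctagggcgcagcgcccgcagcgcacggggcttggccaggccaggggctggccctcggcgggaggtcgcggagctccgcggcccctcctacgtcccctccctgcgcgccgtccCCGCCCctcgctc
Efna4: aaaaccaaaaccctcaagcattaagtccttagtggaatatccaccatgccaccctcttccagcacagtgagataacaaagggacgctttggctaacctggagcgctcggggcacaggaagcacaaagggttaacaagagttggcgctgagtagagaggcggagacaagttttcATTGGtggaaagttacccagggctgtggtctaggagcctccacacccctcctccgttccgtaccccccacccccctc
Ntn5: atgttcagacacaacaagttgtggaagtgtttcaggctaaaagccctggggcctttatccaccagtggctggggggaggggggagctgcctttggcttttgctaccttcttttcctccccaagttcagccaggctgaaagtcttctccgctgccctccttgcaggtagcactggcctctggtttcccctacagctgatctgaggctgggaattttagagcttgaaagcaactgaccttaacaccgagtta
Plxnb3: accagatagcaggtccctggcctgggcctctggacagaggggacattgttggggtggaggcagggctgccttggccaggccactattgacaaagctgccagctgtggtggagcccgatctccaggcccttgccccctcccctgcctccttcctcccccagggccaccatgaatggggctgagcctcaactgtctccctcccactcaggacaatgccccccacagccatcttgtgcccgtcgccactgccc

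The Draxin window held 2 GC boxes, 36 CpG dinucleotides and 79.6% G and C. The Efna4 window held 1 CCAAT box, 7 CpG and 54.4% G and C. The windows of Ntn5 (2 CpG, 52.8%) and Plxnb3 (3 CpG, 65.2%) held neither motif. RefSeq promoters were matched for 60 of the 70 genes, 76 promoters in all. A GC box was present in 71.1% of those 76 and in 32.7% of all 32851 promoters, and a CCAAT box in 26.3% and 33.8%. The median G and C content was 64.4% in the 76 promoters and 52.4% in all promoters, with a median of 15.5 and 6 CpG. These are descriptions of letters and not of bound sites.

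Library totals ran from 23531045 to 32041849 estimated counts. Mcph1 itself showed no loss in libraries labelled Mcph1KO. It lay between 11.7 and 16.6 CPM (TMM-scaled library counts) in them and between 8.36 and 12.5 CPM in WT cortex, with an averaged log2 fold change of 0.44 ± 0.09 (SE). The genotype is therefore given as labelled. Over the cortex libraries the summed level of 8 deep-layer cortical neuron marker genes was 487 to 1408 CPM, and that of 11 pluripotency genes was 6.57 to 17.7 CPM. Both E17.5 libraries numbered 1 differed from those numbered 2, with a summed level of 10 thalamus and hypothalamus marker genes of 295 CPM (labelled Mcph1KO) and 278 CPM (WT) in number 1 and of 633 CPM (labelled Mcph1KO) and 602 CPM (WT) in number 2. Both A18w libraries numbered 1 carried more striatum marker RNA, with a sum over 10 genes of 1686 CPM (labelled Mcph1KO) and 2175 CPM (WT), than those numbered 2 with 701 CPM (labelled Mcph1KO) and 473 CPM (WT). Choroid plexus RNA varied between libraries of a group, with a sum over 10 marker genes of 10.1 and 486 CPM in libraries labelled Mcph1KO and 744 and 1011 CPM in WT at E17.5. At P4 the sums were 97.0 and 803 CPM in libraries labelled Mcph1KO and 340 and 18.3 CPM in WT. At A6w they were 8.26 to 20.1 CPM. At A18w they were 6.37 and 29.1 CPM in libraries labelled Mcph1KO and 7.75 and 719 CPM in WT. In bulk tissue fewer cells of a type and less RNA per cell cannot be told apart.

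Levels of different genes were compared as mean CPM per kb of the principal transcript over the 16 cortex libraries. Counts cover every transcript of a gene, so the value may be too high where annotated exons extend far beyond that transcript. The principal transcript held 4675 of 16739 exonic bases in Epha5 and 5988 of 16983 in Robo2, against 3297 of 3298 in Sema7a. The highest of all 70 was Sema7a, a membrane-anchored semaphorin that signals through integrins and plexin-C1, at 46.0 CPM per kb. Next came the transmembrane ephrin gene Efnb3 at 45.3, the ephrin-A receptor gene Epha5 at 36.4, Sema6b at 35.2, Epha4 at 34.8 and the Slit receptor gene Robo2 at 32.0 CPM per kb. The highest of the other sub-families were Plxna1 (26.3), Ephb6 (25.8), Unc5a (24.1), Efna3 (22.5), Nrp2 (17.0), Draxin (16.2), Slit1 (14.1), Dcc (7.37) and Ntn1 (4.31 CPM per kb). Epha1 was the lowest at 0.0788 CPM per kb. Plxna1 and Efna3 share 10.7% and 14.6% of their principal transcripts with opposite-strand genes, and whether strand was used in counting is not given.

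The order of levels changed with age. At E17.5 the highest means per kb were those of Efnb2 (63.3), Efnb3 (56.6), Epha5 (49.3), Plxna2 (47.5) and Draxin (44.5). At A18w they were those of Sema7a (70.8), Sema6b (44.7), Ephb6 (35.9), Epha4 (34.5) and Unc5a (32.3). Of the 70 genes, 35 had their highest stage mean at E17.5, 12 at P4, 15 at A6w and 8 at A18w. This count was not made over all genes, so it gives no comparison with them.

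**Figure D1:**
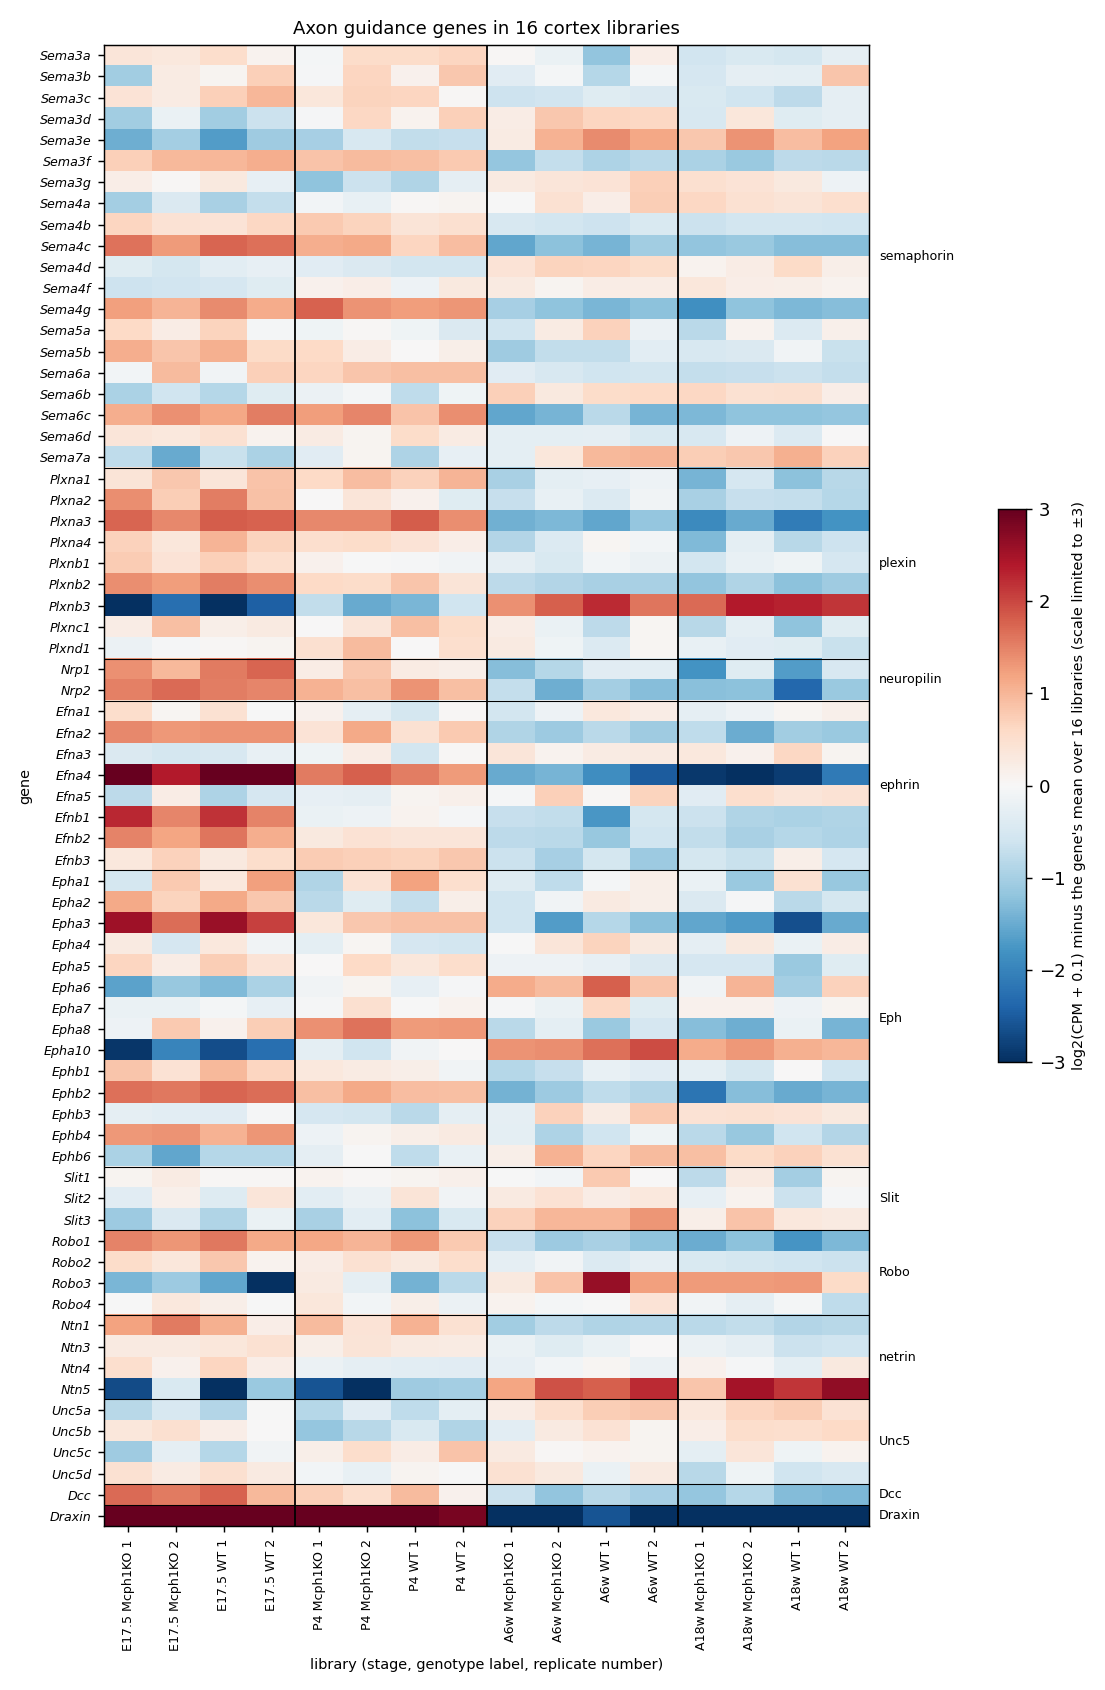
Each row is a gene, each column a cortex library (stage, genotype label, replicate number), and colour is log2(CPM + 0.1) minus the gene's mean over the 16 libraries, limited to 3 in either direction. The E17.5 and P4 columns are red for Draxin, Efna4, Plxna3 and Nrp2, and the A6w and A18w columns are red for Plxnb3, Ntn5, Epha10 and Sema3e.

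The stem cell libraries give the level of the guidance genes in pluripotent cells, which form no axons. In E17.5 WT cortex 54 of the 70 genes were higher than in mESC and 3 were lower, at an adjusted p under 0.05 in edgeR's quasi-likelihood test. That is 81.4% of the genes, against 68% of all 19466 genes tested (35.3% higher, 32.7% lower). CPM of this comparison were scaled among the WT libraries and differ slightly from those of the cortex stages below. The median log2 fold change of the 70 was 3.80, against 0.06 over all genes. Among ligands 28 of 36 were higher and 1 lower, and among receptors 26 of 34 were higher and 2 lower.

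All 3 Slits, both neuropilins and 8 of 9 plexins were higher in E17.5 WT cortex than in mESC, and so were 16 of 20 semaphorins, 6 of 8 ephrins and 10 of 14 Eph receptors. Of the netrin receptors, Dcc and 3 of 4 Unc5 receptors were higher. Among the netrins themselves only Ntn3 and Ntn4 passed the test. Ntn1, the founding netrin, had 42.0 and 22.8 CPM in E17.5 WT cortex and 28.7 and 47.6 CPM in mESC, so the groups overlapped.

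Sema6d, a transmembrane semaphorin, had 103 and 80.1 CPM in E17.5 WT cortex and 0.133 and 0.122 CPM in mESC (log2 fold change 9.44 ± 0.36, adjusted p = 3.01e-08). Draxin, a secreted repellent that binds Dcc and netrins, had 245 and 247 CPM in E17.5 WT cortex and 4.82 and 2.40 CPM in mESC (log2 fold change 6.10 ± 0.36). Both ligands were well above mESC in each cortex library.

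Dcc, the receptor through which netrins attract axons, had 187 and 106 CPM in E17.5 WT cortex and no count in either mESC library. Against the 3 counts that a count of 0 allows over the group, Dcc was at least 2364-fold higher in E17.5 WT cortex. Epha6, an ephrin-A receptor, also had no count in mESC and had 4.48 and 5.85 CPM in E17.5 WT cortex, at least 80.3-fold higher. Epha3, another ephrin-A receptor, had 1 count over both mESC libraries and 7800 in E17.5 WT cortex, a ratio of 5697 with a 95% counting interval of 1022 to 225048. Unc5c, a receptor for netrin repulsion, had 3 counts in mESC and a ratio of 384 (131 to 1865). These figures take account of counting error alone.

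Robo2 had 309 and 190 CPM in E17.5 WT cortex and 0 and 0.203 CPM in mESC. Ephb1, a receptor for ephrin-B, had 127 and 101 CPM in E17.5 WT cortex and 0.177 and 0.0407 CPM in mESC. Plxna4, a class A plexin that serves class 3 and class 6 semaphorins, had 322 and 252 CPM in E17.5 WT cortex and 0.177 and 0.447 CPM in mESC. These receptors were close to 0 in both stem cell libraries. Epha5 had 261 and 205 CPM in E17.5 WT cortex and 0.177 and 0.366 CPM in mESC. Their log2 fold changes were 11.14 ± 0.57 for Robo2, 10.005 ± 0.44 for Ephb1, 9.80 ± 0.37 for Plxna4 and 9.71 ± 0.43 for Epha5.

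The 3 genes that were lower in cortex were Epha2, Epha1 and Sema4b. Epha2, an Eph receptor widely used in epithelia, had 4.29 and 3.37 CPM in E17.5 WT cortex and 266 and 140 CPM in mESC (log2 fold change -5.72 ± 0.40, adjusted p = 6.75e-07). Epha1 had 0.284 and 0.613 CPM in E17.5 WT cortex and 8.58 and 7.89 CPM in mESC (log2 fold change -4.20 ± 0.68). Sema4b, a transmembrane semaphorin, had 28.2 and 32.4 CPM in E17.5 WT cortex and 77.6 and 52.4 CPM in mESC (log2 fold change -1.10 ± 0.22). In all 3 genes both cortex libraries lay below both stem cell libraries.

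**Figure D2:**
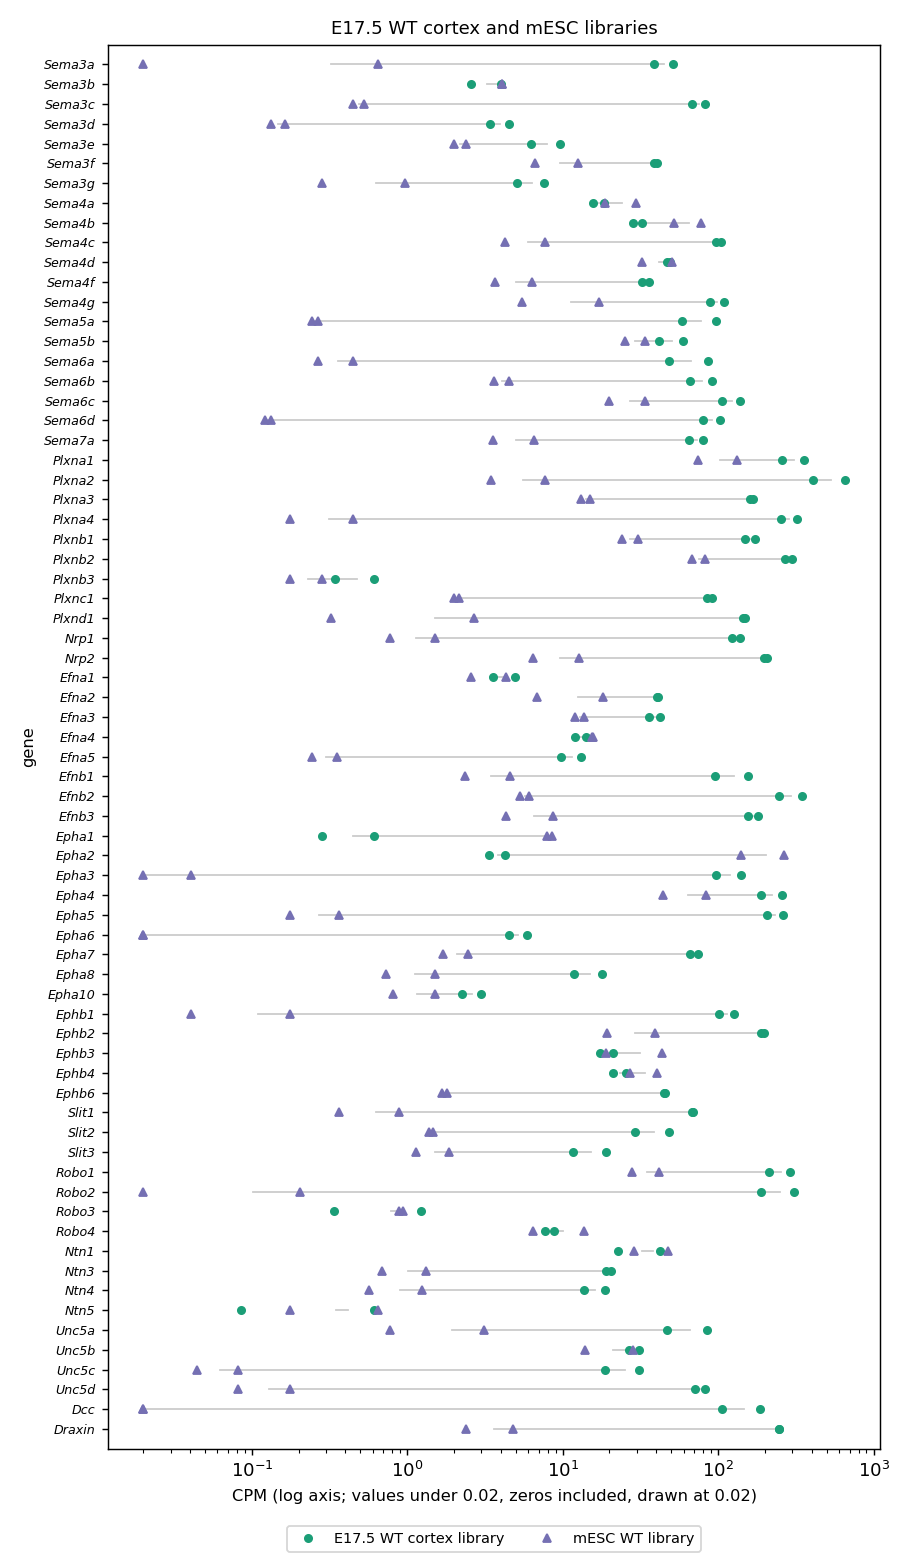
Points are the CPM of each E17.5 WT cortex library (circles) and each mESC WT library (triangles) on a log axis, with a line between the group means for each gene, and values under 0.02 drawn at 0.02. Triangles lie far to the left of circles for most genes, and to their right for Epha2, Epha1 and Sema4b, the 3 genes called lower in cortex. In all, 12 genes had a log2 fold change below 0, among them Ephb3 and Ephb4, which were not called.

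The step between E17.5 and P4 held fewer called genes. At P4 12 genes were higher than at E17.5 and 21 were lower, 47.1% of the 70, against 36.8% of all 19199 genes tested (18.9% higher, 17.9% lower). The median log2 fold change of the 70 was -0.10, against 0.03 over all genes. Ligands gave 4 higher and 9 lower of 36, and receptors 8 higher and 12 lower of 34. None of the 3 Slits was called in this step, nor any rise among the 8 ephrins, of which 4 fell. The remaining changes were 4 semaphorins higher and 3 lower, 4 Eph receptors higher and 5 lower, 2 plexins higher and 3 lower, and 1 Unc5 receptor higher and 2 lower. Robo3 was higher, and Nrp1, Ntn4, Dcc and Draxin were lower.

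Efnb1, which encodes a transmembrane ephrin, had 31.1 and 32.0 CPM in libraries labelled Mcph1KO and 38.1 and 34.9 CPM in WT at P4. At E17.5 it had 172 and 98.7 CPM in libraries labelled Mcph1KO and 161 and 99.6 CPM in WT. All P4 libraries lay well below all E17.5 libraries, and within E17.5 the libraries numbered 1 were the higher ones (log2 fold change -1.97 ± 0.24, adjusted p = 0.000106). Efnb2, its relative that is also known from arteries, was lower by less (146 to 161 CPM at P4, 254 to 358 CPM at E17.5, log2 fold change -0.99 ± 0.14).

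Efna4, which encodes a membrane-anchored ephrin, had 3.26 to 4.68 CPM at P4 and 7.08 to 14.6 CPM at E17.5 (log2 fold change -1.58 ± 0.25). Draxin had 93.7 to 111 CPM at P4 and 170 to 257 CPM at E17.5 (log2 fold change -1.16 ± 0.14, adjusted p = 9.33e-05). For neither ligand did the stages overlap. Sema3d, a secreted class 3 semaphorin, was among the 4 semaphorins that rose, with 7.14 to 12.1 CPM at P4 and 3.51 to 6.35 CPM at E17.5 (log2 fold change 1.10 ± 0.27, adjusted p = 0.00676).

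Among the receptors, Plxna2 had 234 and 297 CPM in libraries labelled Mcph1KO and 253 and 181 CPM in WT at P4. At E17.5 this class A plexin had 610 and 387 CPM in libraries labelled Mcph1KO and 675 and 425 CPM in WT (log2 fold change -1.13 ± 0.20, adjusted p = 0.000911). The stages did not overlap, and the E17.5 libraries numbered 1 were again the higher ones. Epha3 was also lower at P4, with 30.7 to 44.1 CPM, than at E17.5, with 77.4 to 146 CPM (log2 fold change -1.53 ± 0.27).

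The falls of Epha2, Ephb4 and Unc5b were at lower levels. Epha2 had 1.07 to 2.23 CPM at P4 and 3.17 to 4.43 CPM at E17.5 (log2 fold change -1.40 ± 0.28). Ephb4, the ephrin-B2 receptor known from veins, had 9.51 to 12.6 CPM at P4 and 21.8 to 26.8 CPM at E17.5 (log2 fold change -1.17 ± 0.17). Unc5b, a netrin receptor also present on vessels, had 12.3 to 20.2 CPM at P4 and 27.9 to 38.5 CPM at E17.5 (log2 fold change -1.09 ± 0.16). Beside these vascular receptors, the summed level of 12 endothelial marker genes was 303 to 462 CPM at P4 and 396 to 464 CPM at E17.5, with 4 genes called lower, 1 called higher and a median log2 fold change of -0.30. Their part in these falls was not tested.

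Epha10, an Eph receptor whose kinase domain is catalytically inactive, rose most. It had 12.5 and 10.02 CPM in libraries labelled Mcph1KO and 14.1 and 15.2 CPM in WT at P4, against 1.94 and 3.79 CPM in libraries labelled Mcph1KO and 2.32 and 3.08 CPM in WT at E17.5 (log2 fold change 2.21 ± 0.19, adjusted p = 2.32e-05). Every P4 library exceeded every E17.5 library. Ephb6, the other Eph receptor with an inactive kinase domain, had 50.4 to 84.6 CPM at P4 and 28.9 to 46.7 CPM at E17.5 (log2 fold change 0.74 ± 0.20).

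Plxnb3, a plexin known in rodents from oligodendrocytes, had 1.31 to 2.54 CPM at P4 and 0.265 to 0.730 CPM at E17.5 (log2 fold change 1.95 ± 0.36, adjusted p = 0.00122). Beside it, the summed level of 8 oligodendrocyte precursor marker genes was 410 to 602 CPM at P4 and 155 to 258 CPM at E17.5, with 7 genes called higher, and 4 of 11 oligodendrocyte marker genes were called higher. The part of these cells in its rise was not tested. Robo3, the Robo family member that controls midline crossing of commissural axons, had 1.41 to 4.72 CPM at P4 and 0.354 to 1.79 CPM at E17.5, so the stages overlapped (log2 fold change 1.22 ± 0.39, adjusted p = 0.0269). The other named rises were those of Epha6 (1.19 ± 0.35), Unc5c (0.99 ± 0.23) and Epha8 (0.97 ± 0.27), which separated the stages in all libraries. All of these are receptors.

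The count of this step fell when both E17.5 libraries numbered 1 were left out, and the count over all genes fell too. Fewer libraries were then compared, and whether the fall was particular to the guidance genes or to those libraries was not tested. Without both E17.5 libraries numbered 1, a setting chosen after the data were seen, 6 genes were higher and 11 lower at P4. Epha6 (adjusted p = 0.193), Sema3d (0.116), Unc5c (0.0906) and Epha8 (0.195) were then not called, whereas Efnb1, Efna4, Epha3, Epha2, Ephb4, Draxin, Plxna2 and Unc5b remained called. Leaving out single libraries ended the calls of Robo3, Epha6, Epha8 and Ephb6, at adjusted p values of up to 0.0987. In the libraries labelled Mcph1KO alone Robo3 (adjusted p = 0.106), Epha6 (0.0730), Sema3d (0.110) and Epha8 (0.0650) were not called, and in WT alone Robo3 (0.179), Epha6 (0.169), Epha8 (0.148) and Ephb6 (0.337) were not. The log2 fold change of Ephb6 in WT alone was 0.40. Beside the falls, the summed level of 7 intermediate progenitor marker genes was 184 to 225 CPM at P4 and 504 to 786 CPM at E17.5, with 6 of 7 genes lower. The thalamus and hypothalamus list summed to 278 to 633 CPM at E17.5. At P4 it summed to 648 CPM in WT replicate 1 and to 167 to 259 CPM in the other libraries. The part of both lists in these changes was not tested.

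**Figure D3:**
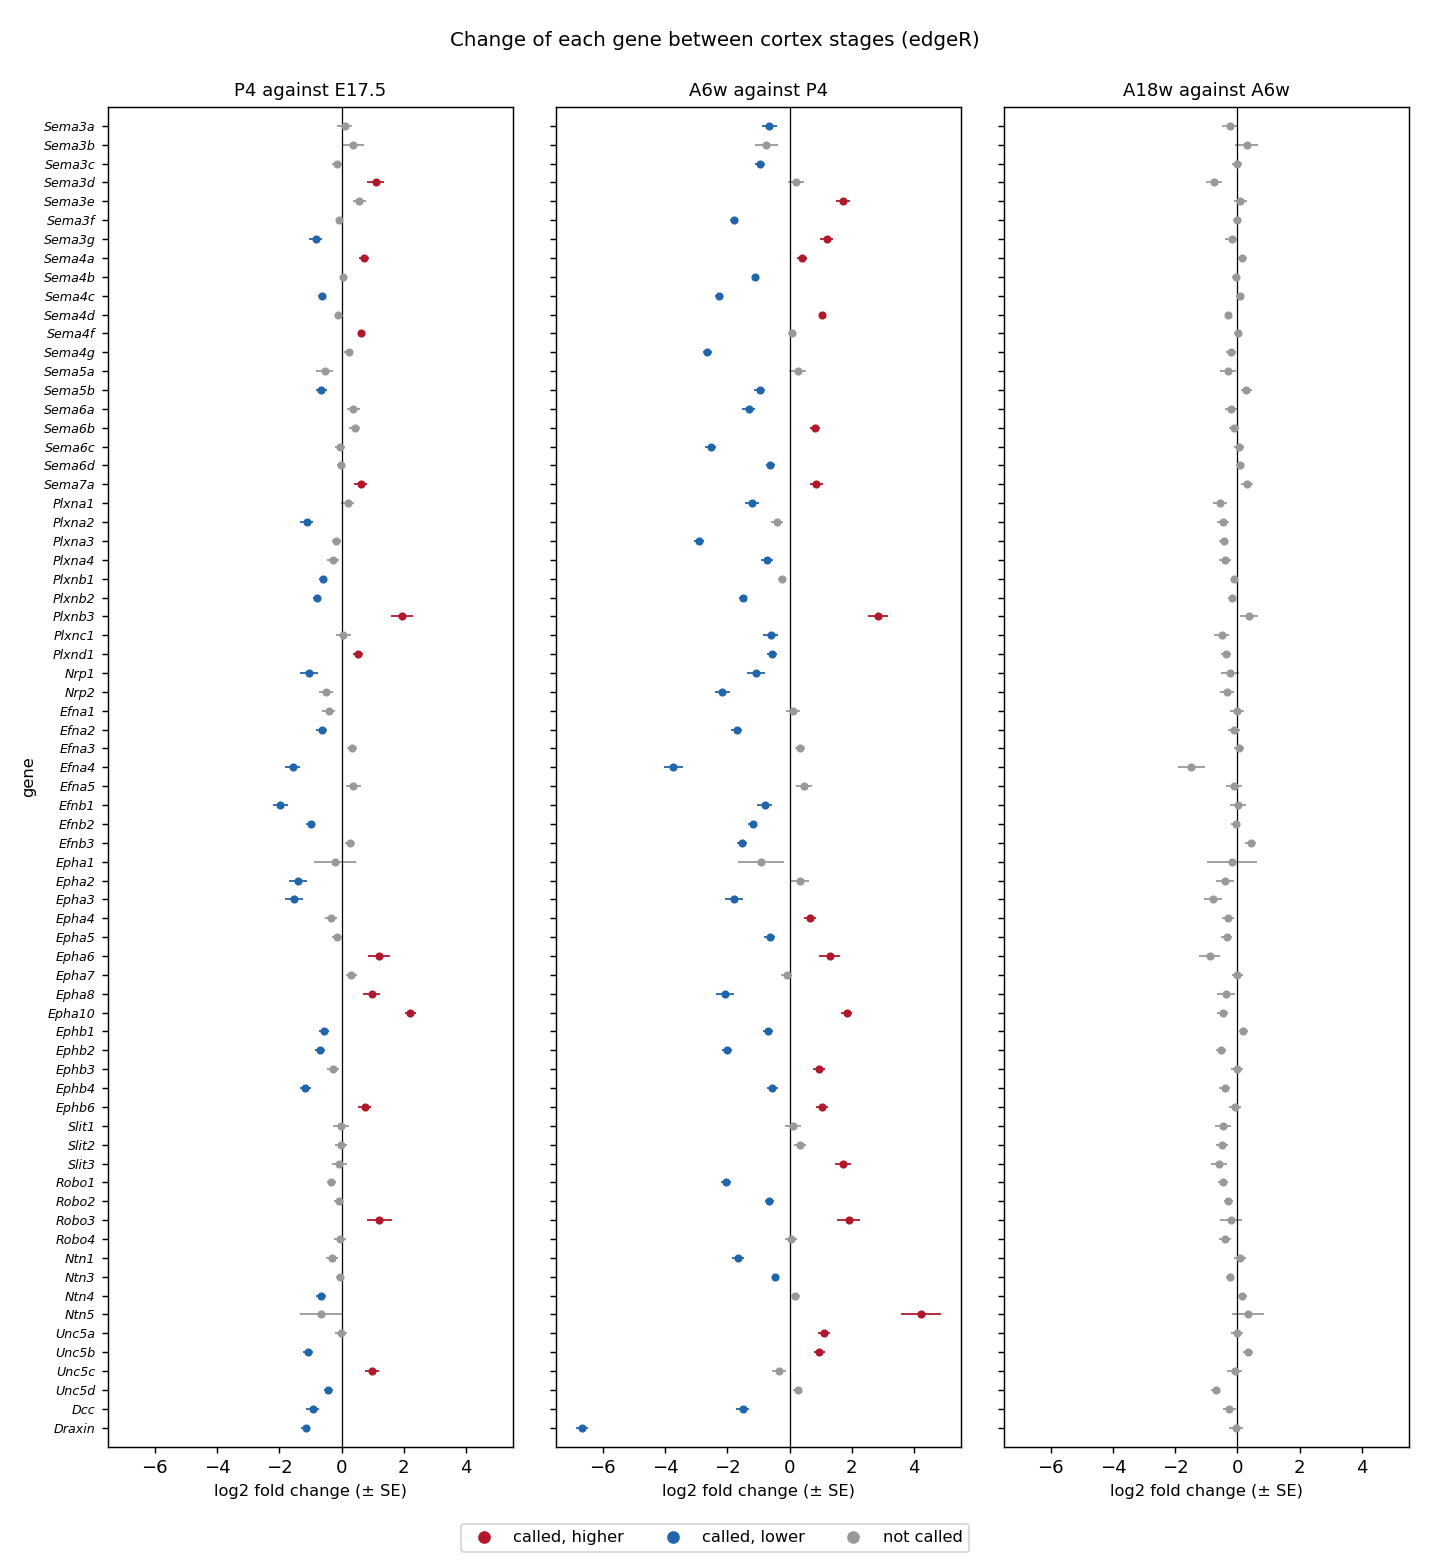
Each panel gives the log2 fold change of every gene between adjoining cortex stages with its SE, later stage over earlier, from edgeR, with calls at an adjusted p under 0.05 in colour. The middle panel, A6w against P4, holds the widest spread, with Draxin at -6.66 and Ntn5 at 4.23, and the right panel, A18w against A6w, holds no call.

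The step to A6w was the largest within cortex. At A6w 17 genes were higher than at P4 and 35 were lower, 74.3% of the 70, against 55.1% of all genes tested (27.3% higher, 27.8% lower). The median log2 fold change of the 70 was -0.55, against -0.06 over all genes. Ligands gave 8 higher and 18 lower, and receptors 9 higher and 17 lower. Both neuropilins, 6 of 9 plexins, 10 of 20 semaphorins and 5 of 8 ephrins fell, and no ephrin or neuropilin rose. Unc5a and Unc5b rose and no Unc5 receptor fell. The 14 Eph receptors divided into 5 higher and 6 lower.

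Draxin showed the largest fall. At E17.5 it had 245 and 170 CPM in libraries labelled Mcph1KO and 253 and 257 CPM in WT, and at P4 103 and 111 CPM in libraries labelled Mcph1KO and 105 and 93.7 CPM in WT. At A6w it had 0.629 and 0.640 CPM in libraries labelled Mcph1KO and 2.07 and 1.20 CPM in WT, and at A18w 1.16 and 1.07 CPM in libraries labelled Mcph1KO and 0.940 and 0.791 CPM in WT. The gene was thus close to 0 in all 8 libraries of the later stages and abundant in all 8 of the earlier stages (A6w against P4 log2 fold change -6.66 ± 0.19, adjusted p = 1.52e-10). Its receptor Dcc fell by less, with 24.9 to 36.0 CPM at A6w and 61.8 to 109 CPM at P4 (log2 fold change -1.50 ± 0.21).

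**Figure D4:**
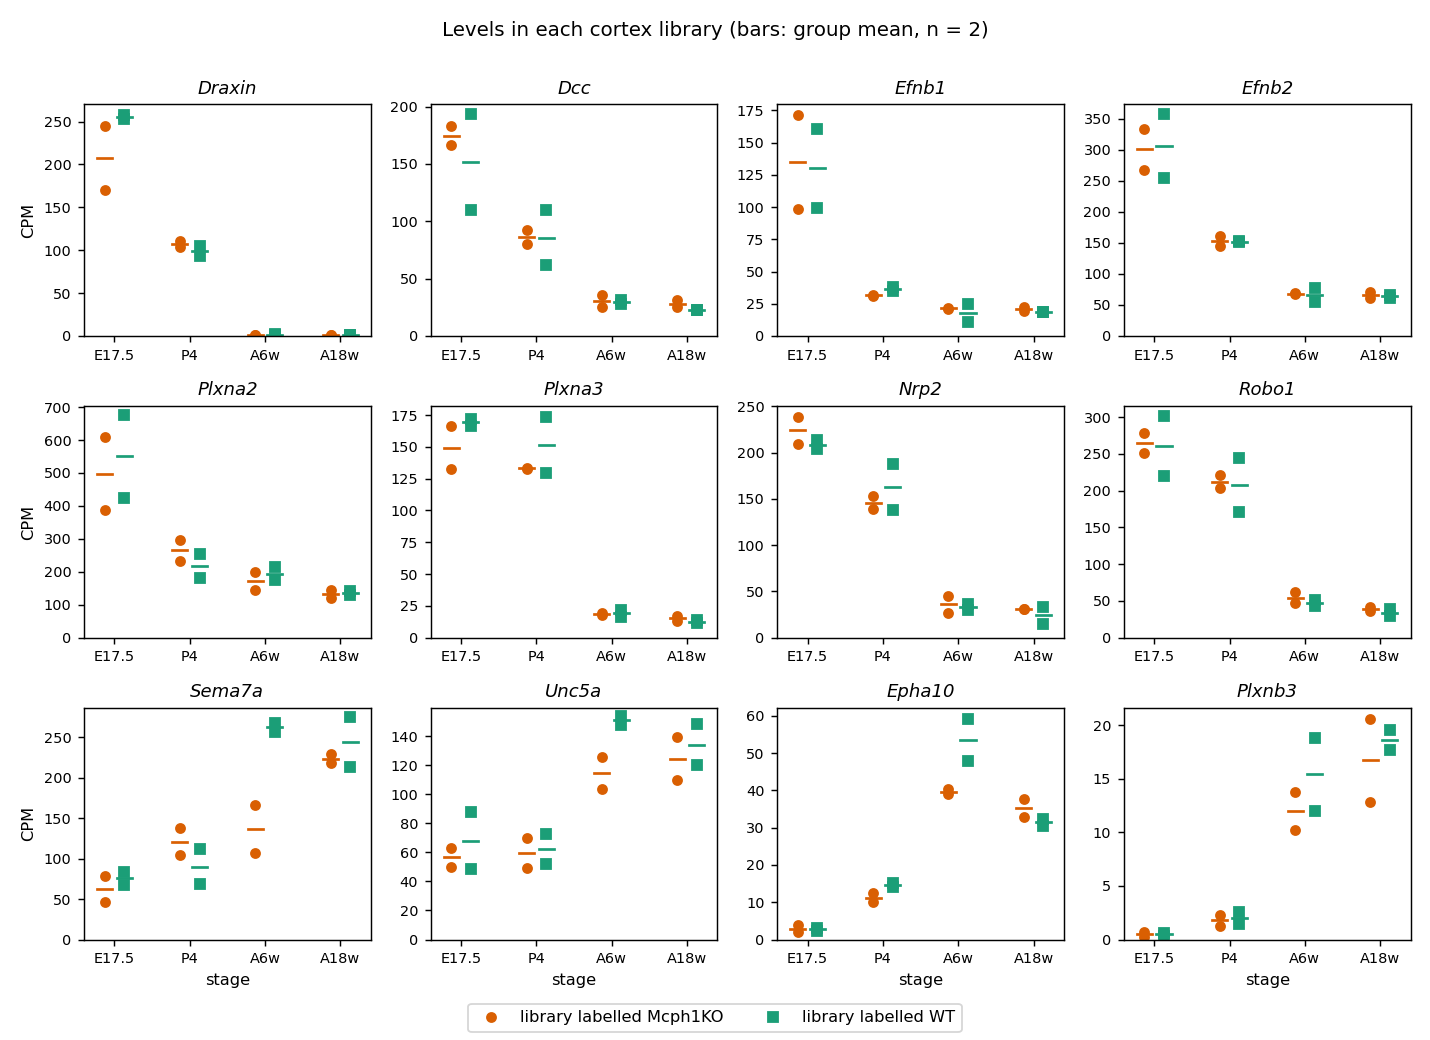
CPM of 12 genes in each cortex library by stage, for libraries labelled Mcph1KO (circles) and WT libraries (squares), with bars at the group means (n = 2 libraries). Draxin, Dcc, Efnb1, Efnb2, Plxna2, Plxna3, Nrp2 and Robo1 are lower at A6w and A18w than at E17.5, and Sema7a, Unc5a, Epha10 and Plxnb3 are higher.

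The ligand gene Efna4 had 0.385 and 0.427 CPM in libraries labelled Mcph1KO and 0.284 and 0.146 CPM in WT at A6w, below all P4 libraries with 3.26 to 4.68 CPM (log2 fold change -3.73 ± 0.31, adjusted p = 5.57e-07). Its principal transcript shares 10.5% of its length with an opposite-strand gene, 4731419I09Rik, and whether strand was used in counting is not given in the sources used here. Transmembrane semaphorins went both ways. Sema4d (1.05 ± 0.11), Sema6b (0.81 ± 0.17) and Sema4a (0.41 ± 0.16) rose, and those with the largest falls were Sema4g, Sema6c and Sema4c. Sema4g had 16.4 to 21.2 CPM at A6w and 102 to 146 CPM at P4 (log2 fold change -2.64 ± 0.15), Sema6c had 16.6 to 27.8 and 88.8 to 135 CPM (-2.53 ± 0.16), and Sema4c, a ligand of plexin-B2, had 10.8 to 15.4 and 50.2 to 70.7 CPM (-2.26 ± 0.13). In these last 3 genes the stages were far apart.

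The secreted semaphorin Sema3f and its receptor subunits Nrp2 and Plxna3 all fell. Sema3f had 8.74 to 11.9 CPM at A6w and 34.2 to 38.4 CPM at P4 (log2 fold change -1.78 ± 0.12). Nrp2 had 45.1 and 26.8 CPM in libraries labelled Mcph1KO and 36.4 and 30.2 CPM in WT at A6w, against 153 and 139 CPM in libraries labelled Mcph1KO and 188 and 138 CPM in WT at P4 (log2 fold change -2.15 ± 0.23). Plxna3 had 18.05 and 19.2 CPM in libraries labelled Mcph1KO and 16.6 and 21.8 CPM in WT at A6w, against 133 CPM in both libraries labelled Mcph1KO and 174 and 129 CPM in WT at P4 (log2 fold change -2.91 ± 0.15, adjusted p = 1.21e-08). No A6w library reached the level of a P4 library in any of the 3 genes.

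Other ligands and receptors that are known to bind each other did not all move the same way. Sema4c fell and so did its receptor gene Plxnb2 (54.1 to 62.3 CPM at A6w, 140 to 189 CPM at P4, log2 fold change -1.50 ± 0.12). Sema3e, a secreted semaphorin that signals through plexin-D1 without a neuropilin, rose to 24.7 to 56.0 CPM at A6w, against 10.4 to 14.96 CPM at P4 (log2 fold change 1.72 ± 0.22, adjusted p = 2.16e-05). Its receptor gene Plxnd1 was lower, with 110 to 176 CPM at A6w and 148 to 285 CPM at P4 (log2 fold change -0.55 ± 0.16, adjusted p = 0.0106). Sema7a rose (0.86 ± 0.21) while its receptor gene Plxnc1 was lower (-0.61 ± 0.24, adjusted p = 0.0454). Slit3 rose, with 36.8 to 56.4 CPM at A6w and 9.54 to 18.3 CPM at P4 (log2 fold change 1.71 ± 0.25), while the Slit receptor gene Robo1 fell, with 43.1 to 61.9 CPM at A6w and 171 to 244 CPM at P4 (-2.05 ± 0.16). These pairs were picked after their values were seen.

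Among ligands that rose, Ntn5, a secreted member of the netrin family, had 3.53 and 5.93 CPM in libraries labelled Mcph1KO and 5.40 and 7.42 CPM in WT at A6w. At P4 it had 0.168 and 0.0726 CPM in libraries labelled Mcph1KO and 0.668 and 0.687 CPM in WT (log2 fold change 4.23 ± 0.65, adjusted p = 0.000111). All A6w libraries exceeded all P4 libraries. Ntn5 shares 29.5% of its principal transcript with the opposite-strand gene Sec1, so reads within the shared part cannot be told apart without strand. Sema3g, a secreted semaphorin known from vessels, had 7.69 to 10.4 CPM at A6w and 2.68 to 5.22 CPM at P4 (log2 fold change 1.19 ± 0.22). Ntn1 moved the other way, with 10.04 to 11.9 CPM at A6w and 27.2 to 42.8 CPM at P4 (log2 fold change -1.66 ± 0.20).

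Plxnb3 had 10.2 and 13.8 CPM in libraries labelled Mcph1KO and 18.8 and 12.04 CPM in WT at A6w, against 1.31 to 2.54 CPM at P4 (log2 fold change 2.84 ± 0.32, adjusted p = 8.03e-06). The stages did not overlap. Beside it, the summed level of 11 oligodendrocyte marker genes was 4955 to 8805 CPM at A6w and 104 to 154 CPM at P4, where Opalin was at 0 in all libraries. Sema4d, a semaphorin also made by oligodendrocytes, rose as well (79.5 to 95.6 CPM at A6w, 40.5 to 47.1 CPM at P4, log2 fold change 1.05 ± 0.11).

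Epha10 rose again, with 39.0 and 40.3 CPM in libraries labelled Mcph1KO and 47.9 and 59.2 CPM in WT at A6w, against 10.02 to 15.2 CPM at P4 (log2 fold change 1.84 ± 0.18, adjusted p = 2.04e-06). Robo3 had 4.86 and 7.13 CPM in libraries labelled Mcph1KO and 24.4 and 9.39 CPM in WT at A6w, against 1.41 to 4.72 CPM at P4 (log2 fold change 1.90 ± 0.37). It lost its call in the libraries labelled Mcph1KO alone (log2 fold change 0.59, adjusted p = 0.385). Epha6 had 21.3 to 41.0 CPM at A6w and 10.02 to 12.6 CPM at P4 (log2 fold change 1.29 ± 0.34), and also missed the threshold in the libraries labelled Mcph1KO alone (1.05, adjusted p = 0.102). Epha8, by contrast, fell to 5.11 to 9.13 CPM at A6w, against 27.6 to 34.8 CPM at P4 (log2 fold change -2.06 ± 0.29). Epha8 and Plxnd1 (0.53 ± 0.16 at P4 against E17.5) thus rose in the first step and fell in the next. Unc5b (0.96 ± 0.16 at A6w against P4) and Sema3g (-0.83 ± 0.22 at P4 against E17.5) fell and then rose.

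Cell type markers moved over the same step. The astrocyte list (10 genes) summed to 4606 to 5649 CPM at A6w and 904 to 1391 CPM at P4, with 7 genes higher and 1 lower. The radial glia list (10 genes) summed to 375 to 426 CPM at A6w and 1491 to 1790 CPM at P4, with 8 lower and 2 higher. All 11 oligodendrocyte and all 10 microglia genes rose. Of 10 genes each, 8 fell in the thalamus and hypothalamus list (164 to 181 CPM at A6w, 167 to 648 CPM at P4), 8 in the meningeal fibroblast list (235 to 1126 CPM at A6w, 489 to 1119 CPM at P4) and 8 in the choroid plexus list (8.26 to 20.1 CPM at A6w, 18.3 to 803 CPM at P4). The part of these cell types in the changes of the guidance genes was not tested. In the thalamus and hypothalamus list the 648 CPM at P4 was that of WT replicate 1 alone.

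The last step held no calls. None of the 70 genes was called at A18w against A6w, where 0.135% of all genes were (0.104% higher, 0.0313% lower), and the smallest adjusted p was 0.115, for Unc5d. At an unadjusted p under 0.05 there were 17 genes, 24.3% of the 70, against 8.89% of all genes, and 16 of the 17 were lower at A18w. DESeq2 called 1 gene, Unc5d (log2 fold change -0.70, adjusted p = 0.00543), with 234 genes called in all. Without a filter on low counts edgeR called 7, all lower, with 598 genes called in all. The A18w replicate 2 labelled Mcph1KO was also left out, which kept a single library in that group. The log2 fold change was then -0.78 for Ephb2 and -0.91 for Unc5d. Unc5d, a netrin receptor that also binds FLRT proteins, had 34.0 and 55.9 CPM in libraries labelled Mcph1KO and 40.2 and 43.7 CPM in WT at A18w. At A6w it had 83.3 and 74.4 CPM in libraries labelled Mcph1KO and 52.8 and 74.1 CPM in WT (log2 fold change -0.70 ± 0.15). The lowest A6w library overlapped the highest A18w library.

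Of the 70 genes 52 had a log2 fold change below 0 in this step (74.3%, against 51.1% of all genes). The direction was more common among receptors, of which 31 of 34 lay below 0, than among ligands with 21 of 36. All 4 Robo receptors, 13 of 14 Eph receptors and 8 of 9 plexins lay below 0, with medians of -0.35, -0.36 and -0.40. No test was made of these counts, since the genes were measured in the same libraries. The genes nearest the threshold after Unc5d were Efna4 (unadjusted p = 0.00522) and Ephb2 (0.00668), picked after their values were seen.

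Some of the lower values sat in the A18w libraries numbered 1, which carried more striatum marker RNA. Slit1 had 40.0 and 33.9 CPM in the A18w libraries numbered 1 and 82.8 and 72.8 CPM in those numbered 2, against 64.4 to 119 CPM at A6w. Epha6 had 10.9 and 5.82 CPM in the A18w libraries numbered 1 and 24.2 and 19.3 CPM in those numbered 2, against 21.3 to 41.0 CPM at A6w. In both genes the number 2 libraries lay near the A6w values. Both genes were picked after their values were seen, and the part of striatal RNA in them was not tested. Without both A18w libraries numbered 1 the count of called genes was again 0. That count cannot show whether those libraries mattered, since no gene was called with them either.

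The study compares libraries labelled Mcph1KO with WT to see what changes in the microcephaly model. No guidance gene was called in them at any single stage, where 0% of all genes were, nor averaged over the stages, where 0.0521% of all genes were (0.0417% higher, 0.0104% lower). DESeq2 called none of the 70 either. Without a filter on low counts edgeR called Ntn5 at P4 and Draxin, Robo3 and Sema7a at A6w, all lower in the libraries labelled Mcph1KO, among 225 genes called at P4 and 262 at A6w in all. At an unadjusted p under 0.05 there were 2 genes at E17.5, 1 at P4, 5 at A6w, 1 at A18w and 1 averaged over the stages. These are 2.86%, 1.43%, 7.14%, 1.43% and 1.43% of the 70, against 1.58%, 3.74%, 3.97%, 1.70% and 2.21% of all genes. The averaged log2 fold changes of the 70 had a median of -0.04, against 0.00 over all genes. In simulated data 26% of 2-fold and 74% of 4-fold changes were recovered in a genotype comparison at E17.5, so most 2-fold changes were missed there. No other single stage was simulated, and each simulated gene had 1 mean over all stages, so power in the data was not measured. The absence of a call therefore does not show that a gene was unchanged.

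The 6 genes with the smallest p averaged over the stages were Draxin, Epha1, Plxnd1, Sema7a, Ntn5 and Unc5a. Draxin had a log2 fold change of -0.29 ± 0.13 (unadjusted p = 0.0425, adjusted p = 1.00). Sema7a had -0.23 ± 0.15, Unc5a -0.21 ± 0.14 and Plxnd1 0.19 ± 0.11. Epha1 (-0.94 ± 0.53) and Ntn5 (-0.67 ± 0.43) had few counts and wide errors. Unc5a and Epha1 had the same sign at all 4 stages, and the other 4 genes did not.

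**Figure D5:**
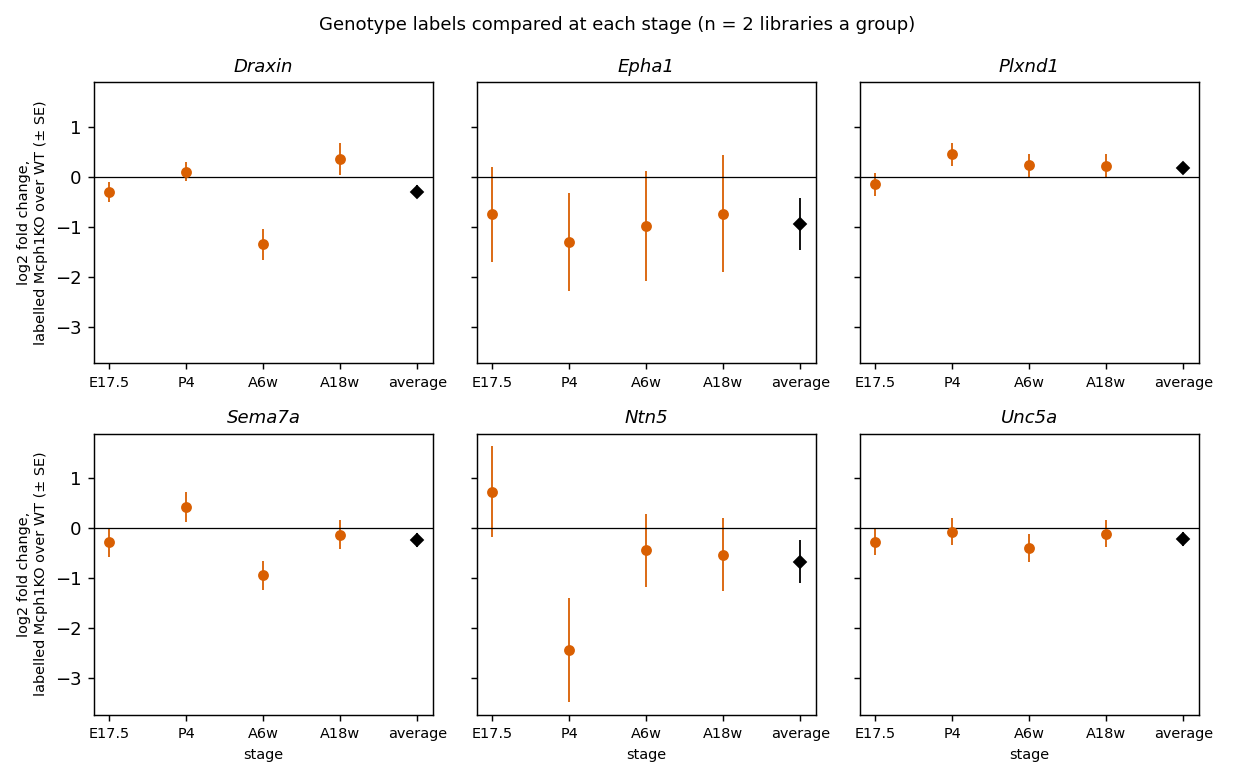
Log2 fold change of libraries labelled Mcph1KO over WT with its SE at each stage (circles) and averaged over the stages (diamonds), for the 6 genes of smallest averaged p. Draxin lies at -1.35 at A6w and at 0.37 at A18w, and no value in the plot passed the adjusted threshold.

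The differences of smallest p at a single stage were at A6w. Draxin had 0.629 and 0.640 CPM in libraries labelled Mcph1KO and 2.07 and 1.20 CPM in WT (log2 fold change -1.35 ± 0.30, unadjusted p = 0.000668, adjusted p = 0.709). Sema7a had 107 and 166 CPM in libraries labelled Mcph1KO and 256 and 267 CPM in WT (-0.94 ± 0.29, unadjusted p = 0.00672, adjusted p = 1.00). Neither gene's groups overlapped at A6w. At A18w Sema7a had 217 and 229 CPM in libraries labelled Mcph1KO and 274 and 213 CPM in WT, and the groups overlapped.

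Robo3 (-1.49 ± 0.51), Plxna4 (-0.62 ± 0.28) and Ephb1 (-0.50 ± 0.21) were the other genes under an unadjusted p of 0.05 at A6w. At the other stages these were Ntn1 (0.69 ± 0.28) and Sema3c (-0.53 ± 0.21) at E17.5, Ntn5 (-2.44 ± 1.04) at P4 and Ntn3 (0.40 ± 0.17) at A18w. All 9 values had an adjusted p of 0.709 or more. In the test of genotype by stage 3 of the 70 genes had an unadjusted p under 0.05, against 435 of all 19199 genes tested. The 3 were Draxin, Robo3 and Sema7a (0.00567, 0.0135 and 0.0393, adjusted p = 1.00 each). All genes of this paragraph were named after their values were seen.

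Groups that did not overlap were counted too. At E17.5 22.9% of the 70 genes had both libraries labelled Mcph1KO on one side of both WT libraries (4 higher, 12 lower), against 20.2% of all genes. The shares were 35.7% at P4 (13 higher, 12 lower) against 29.6%, 37.1% at A6w (7 higher, 19 lower) against 32.1%, and 27.1% at A18w (14 higher, 5 lower) against 22.8%. Each share lay near that of all genes at its stage.

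Genes that act around these ligands and receptors were taken from 5 lists of signalling partners and other cues. In E17.5 WT cortex against mESC, 21 of 26 semaphorin and plexin partners, 16 of 24 Eph and ephrin partners, 12 of 16 Slit and Robo partners, 18 of 21 netrin and Dcc partners and 18 of 21 other guidance genes were higher, and 3, 3, 3, 1 and 1 were lower. Their median log2 fold changes were 2.77, 1.63, 2.08, 4.70 and 4.26 in that order, against 0.06 over all genes, of which 35.3% were higher and 32.7% lower. The cell adhesion gene Nrcam (log2 fold change 8.58 ± 0.38), the kinase gene Pak3 (6.90 ± 0.27) and the ubiquitin ligase gene Trim67 (11.43 ± 0.37) were among the highest.

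At P4 against E17.5 the semaphorin and plexin partners gave 11 higher and 3 lower, the Eph and ephrin partners 5 and 10, the Slit and Robo partners 3 and 4, the netrin and Dcc partners 9 and 2 and the other cues 5 and 9, with medians of 0.23, -0.21, -0.01, 0.19 and -0.36, against 0.03 over all genes, of which 18.9% were higher and 17.9% lower. Mical2, an oxidoreductase of the actin cytoskeleton, had a log2 fold change of 2.33 ± 0.25. Ngef, which encodes an exchange factor under EphA receptors, had 1.77 ± 0.23. The adaptor gene Grb10 was lower (-1.29 ± 0.15).

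At A6w against P4 the same lists gave 6 higher and 14 lower, 11 and 12, 2 and 8, 6 and 10, and 6 and 8, with medians of -0.50, -0.15, -0.29, -0.20 and -0.19, against -0.06 over all genes, of which 27.3% were higher and 27.8% lower. All 5 collapsin response mediator genes on the semaphorin and plexin list, which carry semaphorin signals to the cytoskeleton, fell, with log2 fold changes of -5.62 ± 0.15 for Dpysl3, -4.997 ± 0.15 for Dpysl5, -2.99 ± 0.11 for Crmp1, -1.17 ± 0.16 for Dpysl4 and -0.99 ± 0.20 for Dpysl2. They were grouped after their values were seen. Trim67 (-6.47 ± 0.17) and the Slit and Robo effector gene Srgap1 (-3.33 ± 0.22) also fell. The chimaerin gene Chn1 (3.06 ± 0.13) and Kalrn (2.15 ± 0.13), both regulators of small GTPases under Eph receptors, rose, as did the myelin inhibitors Mag (7.15 ± 0.38) and Omg (2.77 ± 0.20). No gene of the 5 lists was called at A18w against A6w or in a comparison of genotypes.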

How the data were processed

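Bulk RNA-seq was measured in 18 libraries, 2 per group, grouped by the labels alone. The authors deposited 1 table of estimated counts per gene, made with Salmon 1.4.0 after Trimmomatic 0.39 and FastQC on GRCm38.p6, per the submitters' processing notes. The values were whole numbers. Salmon shares reads that fit several genes by an estimate, so paralogs are not fully separated, and the strand setting is not given in the sources used here. Of 54281 gene IDs 54107 matched a GENCODE M21 symbol. Totals were 23531045 to 32041849, and the libraries of each group differed well beyond sampling noise (a chi-square of 29.0 to 52.9 for each degree of freedom).

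Differential expression was computed in R 4.3.3 by the quasi-likelihood F test of edgeR 4.0.16 with filterByExpr (minimum count 10, minimum total 15) and TMM factors. Each group had its own mean, p-values were adjusted by Benjamini-Hochberg over every gene tested, and a gene was called where the adjusted p was under 0.05. A joint model of the 16 cortex libraries tested 19199 genes (8 residual degrees of freedom), and a model of the 10 WT libraries, used for mESC, tested 19466 (5 residual degrees of freedom). CPM are TMM-scaled within each fit. Stage comparisons average both genotypes. Whether replicates came from separate animals or cultures is not given in the labels, so each p-value reflects library-to-library spread that may be technical.

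The 70 genes and the lists were chosen with earlier results of these data known. Named with values were, per stage comparison and direction, up to 8 called genes of largest change with a mean of at least 1 CPM in either group, the 6 of smallest p in the averaged genotype comparison, and the highest gene per kb of each sub-family. Genes outside this rule were named after their values were seen.

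Data were simulated with 100 genes changed 2-fold and 100 changed 4-fold. Recovery by edgeR was 6% and 69% for mESC, 54% and 95% for P4 against E17.5, and 68% and 94% for A18w against A6w. It was 79% and 99% for the averaged genotype and 4% and 54% for genotype by stage. In the data far more genes were called for mESC (13230) and for P4 against E17.5 (7062). The Benjamini-Hochberg cut-off depends on how many genes change, so the simulated recovery does not measure power in those comparisons. The fits were repeated with DESeq2 1.42.0, with RLE and upper-quartile factors, unfiltered, with other sets of libraries, with a replicate block, in each genotype alone and without each library in turn.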

Additional observations from a re-analysis of the deposited data

How the results depend on the processing

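With RLE or upper-quartile factors, all 18 libraries in 1 fit or DESeq2, the called guidance genes numbered 57 for E17.5 WT cortex against mESC, 29 to 35 for P4 against E17.5 and 48 to 53 for A6w against P4. None of the genes named by the rule above changed direction under any alternative, in the comparison for which the rule picked it. Changes named outside that rule were not followed in this check. No filter on low counts gave 7 calls for A18w against A6w (Ephb2, Plxna1, Epha3, Epha6, Slit3, Unc5d and Plxnc1, all lower), 1 for genotype at P4, 3 at A6w and 3 for genotype by stage (Draxin, Robo3 and Sema7a). Over all genes it called 598 for A18w against A6w, 105, 225, 262 and 107 for genotype at the 4 stages, 124 averaged and 466 for genotype by stage. The cause was not tested. DESeq2 called 1 guidance gene for A18w against A6w, and over all genes 234 there, 12, 22, 32 and 4 for genotype by stage of sampling and 32 averaged, against 26, 0 at each stage and 10 in edgeR. P4 against E17.5 gave 19 calls in the libraries labelled Mcph1KO alone and 23 in WT alone (3594 and 3502 genes in all), where fewer libraries were compared. Without both E17.5 libraries numbered 1 it gave 17 (2898 genes in all, against 7062), and the averaged genotype comparison called 1 gene of all genes. Leaving out each library in turn gave 56 to 59 calls for mESC, 25 to 35 for P4, 46 to 52 for A6w, 0 to 2 for A18w and 0 to 0 for every genotype comparison. It ended calls for P4 against E17.5 of Epha6 without WT replicate 1 (adjusted p = 0.0744) or Mcph1KO-labelled replicate 1 of E17.5 (0.0766), or WT replicate 2 (0.0528) or Mcph1KO-labelled replicate 2 of P4 (0.0503), of Epha8 without either E17.5 replicate 1 (0.0725 and 0.0686), of Ephb6 without P4 WT replicate 2 (0.0561), and of Robo3 without E17.5 WT replicate 2 (0.0796), E17.5 Mcph1KO-labelled replicate 1 (0.0909), P4 WT replicate 2 (0.0987) or P4 Mcph1KO-labelled replicate 1 (0.0874). The labels do not relate same-numbered libraries. Their deviations correlated at 0.48 at E17.5, 0.21 at P4, 0.08 at A6w and 0.29 at A18w, not above 0.1 at every stage, so the libraries were not treated as paired. With the replicate number as a block the calls were 57, 34, 53 and 0 for the stage comparisons and 0 for each genotype comparison, and over all genes 74 for A18w against A6w and 16 for the averaged genotype. At these depths genes under 1 CPM in cortex, such as Epha1, had wide errors between genotypes.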
